A study of Homo sapiens with 9 samples.

Results

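The genes described here act in G2 and mitosis, the stages in which a cell that has copied its DNA condenses its chromosomes, attaches them to a spindle and divides. The list holds 46 such genes, chosen by name with earlier results of these data known. Of the 46 genes, 43 were measured among the 17958 genes analysed, each by the brightest probe set that names it alone. BUB1B, KIF20A and PTTG1 were not measured, since their probe sets also name a neighbour or a near copy. RNA came from HCT 116, an established epithelial cell line of human colorectal cancer, extracted 24 hours after transfection. The cells received the empty vector pcDNA3 (control), a vector for mouse KL-FL, which is full-length klotho, or a vector for mouse KL1, a subdomain of klotho. Klotho is a membrane protein of the kidney that lets FGF23, a phosphate hormone, bind its receptor. Each of the 3 groups had 3 arrays, and every group went through a transfection. The labels name JetPEI or polyethylenimine as the reagent without saying which sample received which, and they do not give the share of cells that took up a vector. They also do not say whether replicates were separate cultures, so a p-value here covers only array-to-array spread, part of which could be technical.

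Entry into mitosis is driven by the kinase CDK1 bound to cyclin B, which the phosphatases of the CDC25 family switch on and which polo-like and Aurora kinases assist. Kinetochores, built on centromeres, then hold chromosomes to microtubules, kinesin motors shape the spindle, and a checkpoint holds back the anaphase-promoting complex until every chromosome is attached. Most of these genes are transcribed late in the cell cycle, so their RNA in a culture follows how many cells are in G2 and M as well as how much RNA each of those cells holds. In bulk RNA fewer such cells and less RNA per cell cannot be told apart.

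Promoters of this gene class are known for 2 short stretches: CCAAT, bound by NF-Y, and TTTGAA, the cell cycle homology region through which DREAM, B-MYB and FOXM1 complexes act. In RefSeq promoters of build GRCh38.p14, which run from 250 bases before a gene's start to 50 after it, 39 of the 46 genes had 50 entries, some overlapping because a gene can have several starts. AURKA, BIRC5, BUB3, FOXM1, TPX2, TTK and UBE2C had none. On either strand TTTGAA stood in 31 of the 50 (62.0%) against 15.2% of all 35116 promoters of the same length. It began within 50 bases of the start in 25 of the 50 (50%) against 4.62%. CCAAT stood in 38 (76.0%) against 34.6%, and 22 (44.0%) held 2 or more against 10.8%. Both stretches stood together in 26 (52.0%) against 5.9%. The variant TTCGAA stood in 3 (6.0%) against 1.45%. Letters of the E2F site (TTGGCGC by itself, its variant spelling TTGCCGC, its variant spelling TTCGCGC, or else the variant spelling TTCCCGC) stood in 16 (32.0%) against 13.0%. A match is a description of letters and not a bound site.

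To show that layout, the 200 bases before the start are printed for 6 genes that hold both stretches and are described one by one below. Among such genes these were taken in order of the smallest limma p in KL1 minus control. The bases run 5′ to 3′ on the gene's strand, with TTTGAA and CCAAT in capitals, or TTCAAA and ATTGG where the match lies on the other strand. The windows are chr10:60778278-60778477 (plus strand) for CDK1, chr5:138331805-138332004 (minus strand) for CDC25C, chrX:70289904-70290103 (plus strand) for KIF4A, chr17:40417897-40418096 (minus strand) for TOP2A, chr16:23678689-23678888 (plus strand) for PLK1 and chr10:92592930-92593129 (plus strand) for KIF11. Where a gene has several starts, as CDK1 has 2 and CDC25C has 4 in the table, the window with TTTGAA closest to its start is shown.
CDK1: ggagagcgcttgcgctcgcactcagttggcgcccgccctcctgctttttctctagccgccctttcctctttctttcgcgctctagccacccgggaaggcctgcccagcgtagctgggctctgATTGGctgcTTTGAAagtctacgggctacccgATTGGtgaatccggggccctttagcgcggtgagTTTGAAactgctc
CDC25C: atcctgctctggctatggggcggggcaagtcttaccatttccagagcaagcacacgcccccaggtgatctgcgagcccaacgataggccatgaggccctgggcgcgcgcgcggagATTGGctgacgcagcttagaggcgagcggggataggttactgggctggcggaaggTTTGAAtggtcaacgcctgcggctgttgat
KIF4A: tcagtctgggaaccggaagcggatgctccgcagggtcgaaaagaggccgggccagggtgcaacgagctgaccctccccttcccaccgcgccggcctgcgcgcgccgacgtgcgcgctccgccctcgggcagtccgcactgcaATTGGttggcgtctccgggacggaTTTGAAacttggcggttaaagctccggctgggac
TOP2A: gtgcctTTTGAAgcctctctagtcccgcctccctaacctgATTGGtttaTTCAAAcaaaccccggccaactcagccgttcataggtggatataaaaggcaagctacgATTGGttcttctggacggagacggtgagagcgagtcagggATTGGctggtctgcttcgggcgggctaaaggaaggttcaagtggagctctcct
PLK1: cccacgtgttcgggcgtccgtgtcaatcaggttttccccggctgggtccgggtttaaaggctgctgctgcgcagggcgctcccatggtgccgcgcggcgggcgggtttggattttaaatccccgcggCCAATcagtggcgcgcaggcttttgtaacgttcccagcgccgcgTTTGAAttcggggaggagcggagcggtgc
KIF11: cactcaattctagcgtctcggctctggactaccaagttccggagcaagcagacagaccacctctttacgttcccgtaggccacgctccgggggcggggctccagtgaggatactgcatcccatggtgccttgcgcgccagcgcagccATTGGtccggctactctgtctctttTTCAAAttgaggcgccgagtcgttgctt

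Counting -1 as the base before the start, in these windows the TTTGAA nearest the start begins at -13 in CDK1, -30 in CDC25C, -34 in KIF4A, -151 in TOP2A, -29 in PLK1 and -28 in KIF11. In CDC25C, KIF4A, PLK1 and KIF11 it has 1 CCAAT upstream of it in the window, beginning at -85, -58, -73 and -53. In CDK1 each of 2 CCAAT stretches, at -78 and -46, lies upstream of a TTTGAA, at -69 and -13. The windows with this layout include CDK1 and CDC25C, which read lower with KL1 than in control, and KIF4A, which read higher. Since the genes shown were picked by that comparison, the windows cannot tell whether layout and direction go together.

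The arrays carried the labelled cell type. Of 15 epithelial markers 12 lay above the median of all genes, with array means of 7.62 to 7.80 log2 units, among them EPCAM at 9.72 to 9.84. Leukocyte markers had array means of 3.73 to 3.82, with 1 of 10 above that median, and fibroblast and endothelial markers 3.84 to 3.90, with 2 of 12. Their part in the values below was not tested. KL itself read 3.05 in control and 3.19 in both klotho groups on probes for the human gene, so the mouse vectors were checked only weakly. Correlations between arrays over all genes ran from 0.997 to 0.999, and KL-FL replicate 3 and KL1 replicate 2 stood apart with the lowest medians, 0.997 and 0.998.

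No G2/M or mitosis gene passed the test in any comparison. With limma over all 17958 genes at an adjusted p of 0.05, 0 of 43 were called for KL-FL against control, where 0.00557% of all genes were, 0 of 43 for KL1 against control, where again 0.00557% were, and 0 of 43 for KL-FL against KL1, where 0.0% were. The smallest adjusted p of any of the 43 genes was 0.688, 0.927 and 0.855 in the 3 comparisons. At an unadjusted p under 0.05 the counts were 4, 3 and 5 of 43, against 1286, 916 and 906 of all 17958 genes. They were 2, 3 and 2 with arrays centred on their medians, against 1201, 733 and 888 of all genes. Without KL-FL replicate 3 they were 0, 3 and 3, against 1479, 1211 and 1120. None of the 43 was called under any of 21 alternative settings. In those the smallest adjusted p in limma was 0.0526 for KIF11 between KL-FL and control, with arrays weighted by their quality.

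The intervals give a range for each difference from array-to-array spread alone. Each is for 1 gene in 1 comparison, without adjustment for the number of genes or comparisons. Some below therefore exclude 0 where the adjusted p is large. For 39 of the 43 genes the 95% interval of KL-FL minus control lay within 0.25 log2 units of 0, which is 1.19-fold, as it did for 40 in KL1 minus control and 39 in KL-FL minus KL1. Within 0.5 log2 units, or 1.41-fold, lay 42 of 43 in each comparison. The exception was SPC25, whose values spread most. The largest differences, of either sign, were -0.16 for AURKB with KL-FL, -0.21 for SPC25 with KL1 and 0.32 for SPC25 between KL-FL and KL1. Without KL1 replicate 2 the SPC25 values were 0.035 and 0.074, and without KL-FL replicate 3 that of AURKB was -0.11.

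**Figure D1:**
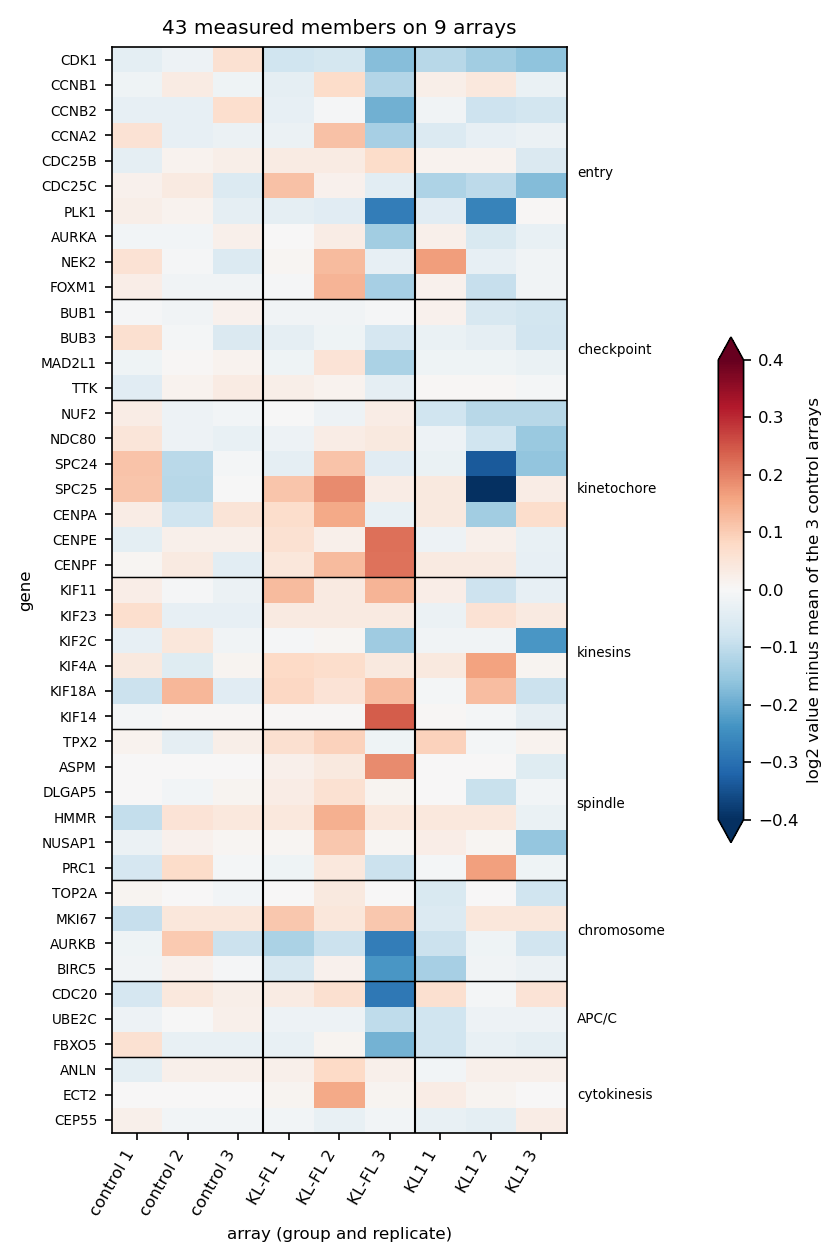
The log2 value of each of the 43 measured genes (vertical axis, grouped by role) on each of the 9 arrays (horizontal axis), as its difference from the mean of the 3 control arrays, with red higher and blue lower. Of the 387 cells 84.0% lie within 0.1 log2 units of 0, and the darkest cells fall on KL-FL replicate 3 and KL1 replicate 2.

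Taken array by array, more of the genes lay below the control mean on KL1 replicates 2 and 3, at 29 and 32 of 43, than on the control arrays themselves, at 22, 21 and 22, while KL1 replicate 1 held 23. Those 3 KL1 counts are 53.5%, 67.4% and 74.4% of the 43 on replicates 1, 2 and 3, against 51.8%, 54.0% and 62.6% of the genes above the median level. The KL-FL arrays held 19, 9 and 25, or 44.2%, 20.9% and 58.1%, against 46.8%, 34.7% and 60.8%. KL-FL replicate 3 alone held the lowest value of all 9 arrays for 14 genes (32.6%, against 23.9% of all genes), and KL1 replicate 3 for 12 (27.9%, against 10.6%). KL-FL replicate 2 alone held the highest value for 16 (37.2%, against 21.2%). For these lowest and highest values the shares of genes above the median level were not counted. The mean over the 43 genes stayed between 8.15 and 8.24 on every array.

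In KL1 minus control 29 of 43 genes (67.4%) lay below 0, against 47.8% of all genes, with a median of -0.022 against 0.0026. All 43 passed a filter at the median level of all genes, and of the 8979 genes that passed it 59.6% lay below 0, which is the closer background. No gene lay above all controls on all 3 KL1 arrays (background 5.13%), and 4 lay below all controls (9.3%, background 4.34%): CDK1, CDC25C, NUF2 and BIRC5. At an unadjusted p under 0.05 there were 0 higher (background 2.99%) and 3 lower, CDK1, CDC25C and NUF2 (background 2.11%). Here and below, a background in brackets is a share of all genes, not of those above the median level.

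In KL-FL minus control 17 of 43 genes (39.5%) lay below 0, against 42.6% of all genes, and the median was 0.014 against 0.0099. With each array centred on its median 26 lay below 0, against 66.1% of all genes, after quantile normalization 22, against 58.5%, and without KL-FL replicate 3 11, against 35.8%. Of the 8979 genes above the median level, the closer background, 49.1% lay below 0. The number was 6161 with arrays centred and 3424 without KL-FL replicate 3. ASPM, CDC25B, CENPF, ECT2, KIF11 and KIF4A lay above all controls on all 3 arrays (14%, background 7.13%), and CDK1 and PLK1 below (4.65%, background 3.25%). At an unadjusted p under 0.05, CENPF and KIF11 were higher (background 4.88%) and AURKB and CDK1 lower (background 2.28%).

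Between the 2 klotho vectors 14 of 43 genes (32.6%) were lower with KL-FL than with KL1, against 45.5% of all genes. The count was 20 with each array centred on its median, against 66.8% of all genes, 20 after quantile normalization, against 64.3%, and 3 without KL-FL replicate 3, against 36.9%. Of the 8979 genes above the median level, the closer background, 41.6% were lower. The number was 5484 with arrays centred and 2490 without KL-FL replicate 3. The median of the 43 genes was 0.030, against 0.0058 over all genes and 0.012 over those above the median level. ASPM, CDC25B, CDC25C, CENPF, DLGAP5, KIF11 and NUF2 lay higher on all 3 KL-FL arrays than on every KL1 array (16.3%, background 4.67%), and AURKB lay lower (2.33%, background 2.21%). At an unadjusted p under 0.05, CDC25C, CENPF, KIF11, NDC80 and NUF2 were higher (background 3.49%) and 0 were lower (background 1.55%). The comparisons share arrays, so a low KL1 value enters both of those that hold KL1.

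**Figure D2:**
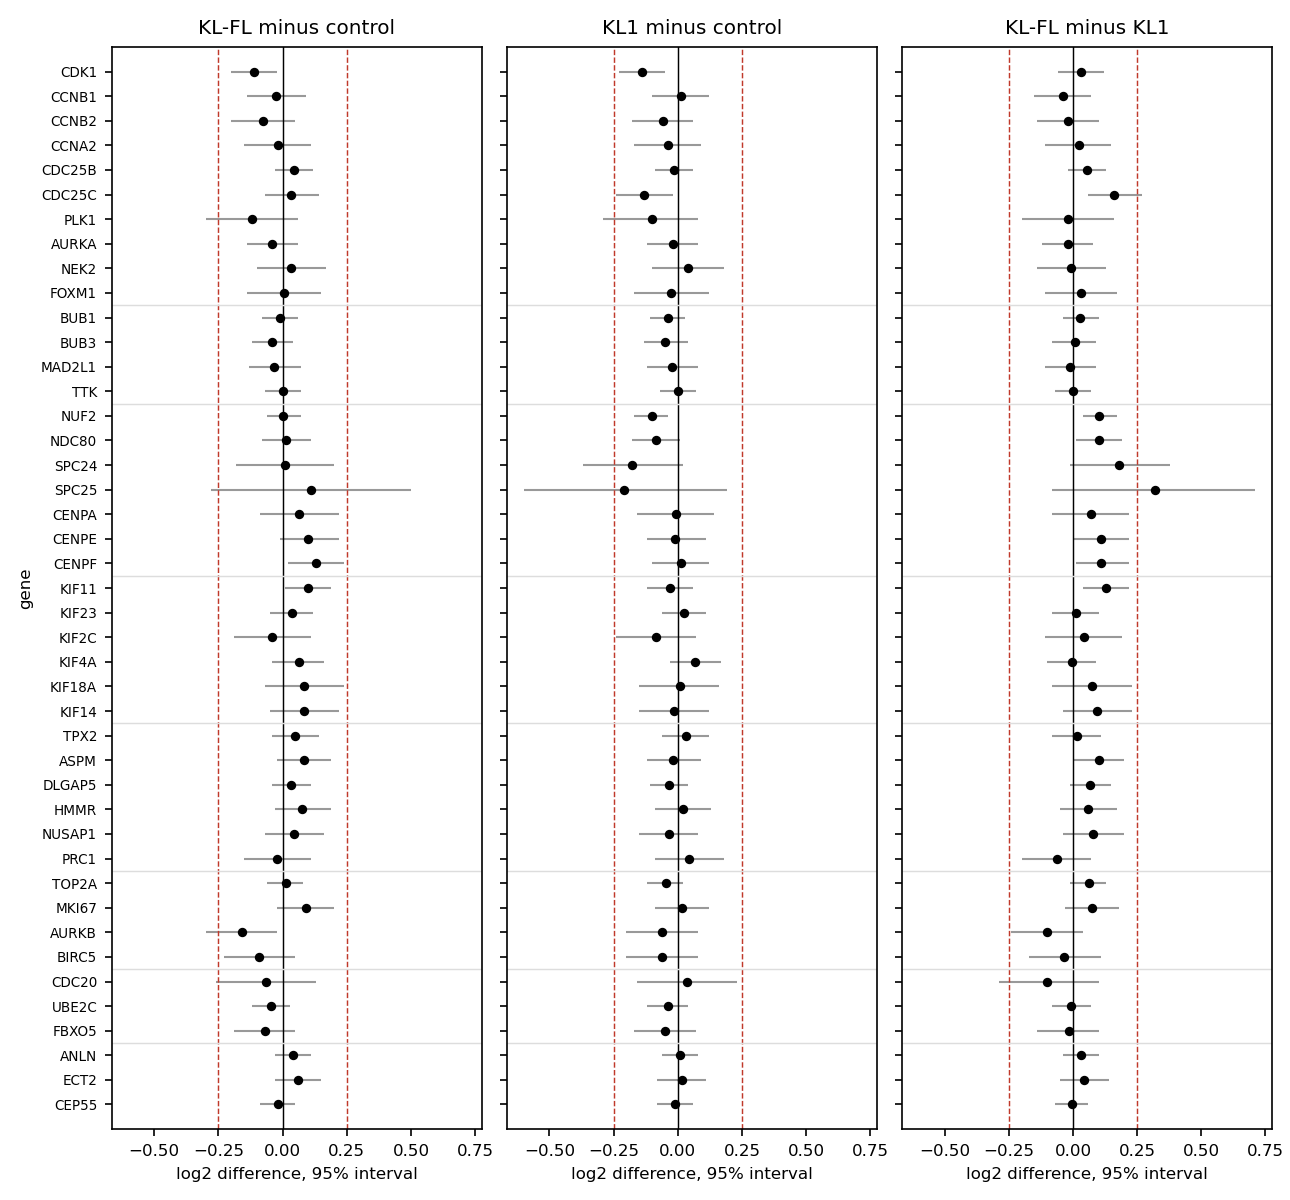
Log2 difference (horizontal axis) of each measured gene (vertical axis) in the 3 comparisons, with lines for the 95% interval of the limma fit and dashed lines at 0.25 log2 units to either side of 0. The points sit close to 0, and SPC25 has the widest interval in each panel.

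Among the 10 regulators of mitotic entry, CDK1 lay below every control on every klotho array. Its log2 value was 8.17, 8.19 and 8.27 on control replicates 1 to 3, 8.13, 8.14 and 8.04 with KL-FL, and 8.10, 8.07 and 8.05 with KL1. All 6 klotho arrays lay below all 3 controls, and the KL-FL and KL1 arrays overlapped. Of all genes 3.25% lay below all controls with KL-FL and 4.34% with KL1, and the share that did so with both was not counted. CDK1, and CDC25C, NUF2, CENPF and KIF11 below, are among the genes with the smallest p, which tend to be those whose groups separate. The difference was -0.11 (SE 0.040, 95% interval -0.20 to -0.02) with KL-FL and -0.14 (SE 0.040, -0.23 to -0.05) with KL1, or 0.928 and 0.909 of the control level, with adjusted p = 0.688 and 0.927 in limma. Both share the same 3 controls. Without KL-FL replicate 3, its lowest KL-FL array, the first difference was -0.075.

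CDC25C, a phosphatase that activates CDK1, read 5.87, 5.89 and 5.80 in control, 5.97, 5.87 and 5.81 with KL-FL, and 5.73, 5.75 and 5.68 with KL1. The 3 KL1 arrays lay below every other array, while KL-FL and control overlapped. The difference was -0.13 (SE 0.047) for KL1 minus control and 0.16 (SE 0.047, 95% interval 0.06 to 0.27) for KL-FL minus KL1, with adjusted p = 0.927 and 0.855 in limma. The related CDC25B differed from control by 0.044 with KL-FL and -0.013 with KL1.

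PLK1, the polo-like kinase of mitotic entry and spindle assembly, read 10.19, 10.18 and 10.13 in control, 10.13, 10.12 and 9.89 with KL-FL, and 10.12, 9.90 and 10.17 with KL1. One array of each klotho group, KL-FL replicate 3 and KL1 replicate 2, held the low values. The differences of -0.12 (SE 0.080) and -0.10 (SE 0.080) became -0.047 without the first of these arrays and -0.021 without the second. The KL-FL and control values do not overlap, by less than the second decimal.

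The cyclin partners of CDK1 overlapped control in every group. CCNB1, cyclin B1, read 8.98, 9.03 and 8.98 in control, 8.96, 9.07 and 8.88 with KL-FL, and 9.02, 9.04 and 8.97 with KL1. It differed from control by -0.025 (SE 0.049) and 0.013 (SE 0.049). CCNB2 and CCNA2, cyclins B2 and A2, lay at -0.076 and -0.017 with KL-FL and -0.057 and -0.039 with KL1, and without KL-FL replicate 3 the KL-FL values were -0.017 and 0.044.

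AURKA, the Aurora kinase of centrosomes, read 8.07, 8.07 and 8.10 in control, 8.08, 8.11 and 7.94 with KL-FL, and 8.10, 8.02 and 8.05 with KL1, with overlapping groups. FOXM1, the transcription factor that drives many G2/M genes, read 8.54, 8.5 and 8.5 in control, 8.51, 8.65 and 8.38 with KL-FL, and 8.53, 8.42 and 8.5 with KL1. Its KL-FL arrays spanned both the highest and the lowest value of all 9, and its mean difference was 0.0038 (SE 0.063), or -0.030 with arrays centred on their medians. NEK2, a kinase that separates centrosomes, lay at 0.033 with KL-FL and 0.040 with KL1. Leaving out KL-FL replicate 3 made the first 0.065, and leaving out KL1 replicate 2 made the second 0.076. Of the 10 entry genes 6 lay below 0 with KL-FL and 8 with KL1, and without KL-FL replicate 3 the first count was 3. For genes above the median level the shares below 0 with all arrays were 49.1% and 59.6%.

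The 4 measured genes of the spindle checkpoint lay within 0.05 log2 units of control with either vector. BUB1 and TTK, kinases of the checkpoint, BUB3, a scaffold at the kinetochore, and MAD2L1, which binds CDC20 to inhibit it, ranged from -0.041 to 0.0020 against control with KL-FL and from -0.048 to 0.00099 with KL1. Their largest standard error was 0.044, so the 95% interval of each lay within 0.25 log2 units of 0 in every comparison.

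**Figure D3:**
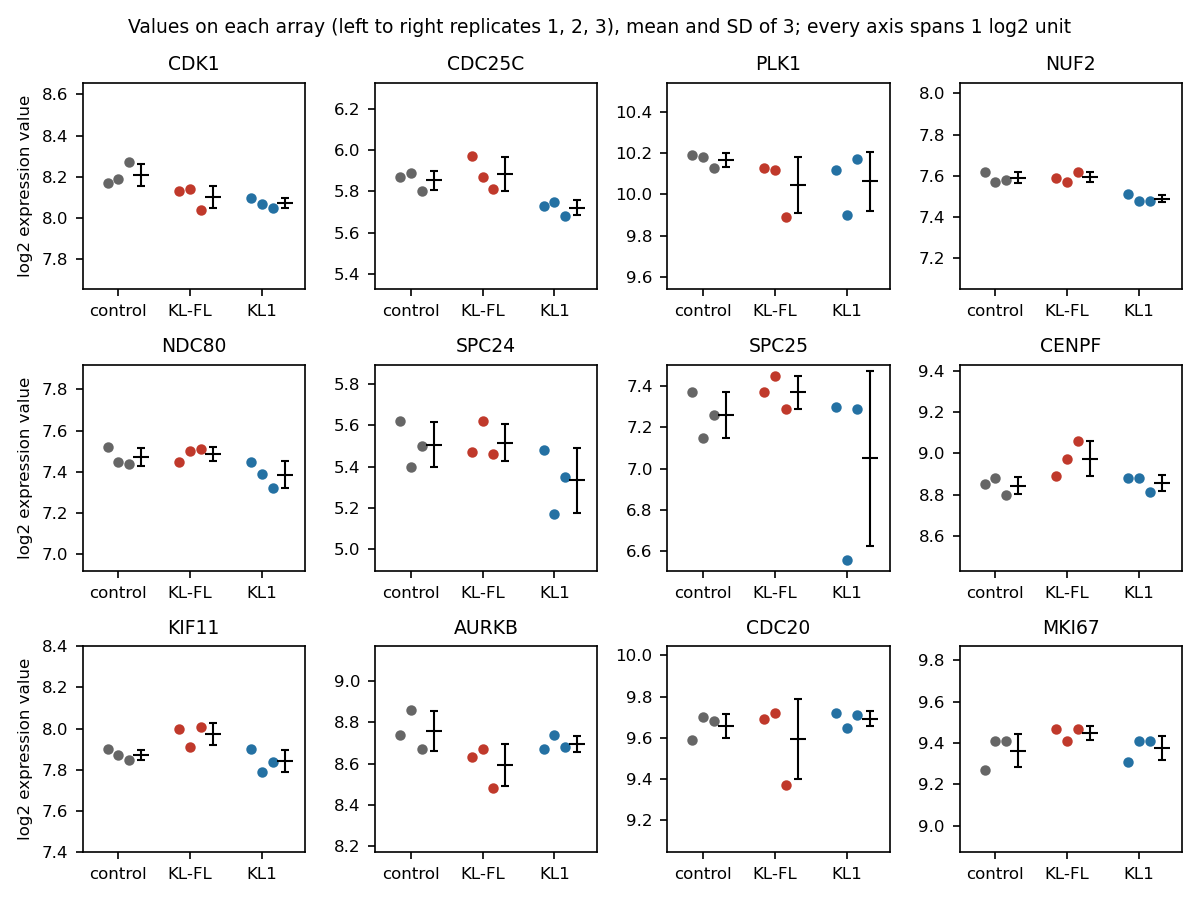
Log2 value on every array (vertical axis, spanning 1 log2 unit in each panel) for 12 genes in control, KL-FL and KL1 (horizontal axis), with the mean and SD of 3 arrays beside the points. CDK1, CDC25C and NUF2 lie below all controls on the 3 KL1 arrays, while SPC25 has 1 low KL1 array at 6.56 and CDC20 has 1 low KL-FL array at 9.37.

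Of the 8 roles, kinetochore genes had the largest median difference between the 2 klotho vectors. All 7 lay higher with KL-FL than with KL1, with a median of 0.11 and 0 called. That direction held for 7 of 7 with arrays centred on their medians, after quantile normalization and with KL-FL replicate 3 or KL1 replicate 2 left out. Of all genes 54.4% lay higher, and of those above the median level 58.4%. With KL-FL replicate 3 left out, 40 of the 43 genes and 72.1% of those above the median level did. Among 25 other kinetochore genes 17 lay higher, with a median of 0.017. Against control 7 of the first 7 genes were above 0 with KL-FL (4 with arrays centred, 5 after quantile normalization), against 50.9% of genes above the median level. With KL1 6 of the 7 were below 0 (6 and 5), against 59.6%. Without KL1 replicate 2 the last count was 4, and the median went from -0.085 to -0.024.

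NUF2, NDC80, SPC24 and SPC25 form the NDC80 complex, the rod by which a kinetochore grips a microtubule. NUF2 read 7.62, 7.57 and 7.58 in control, 7.59, 7.57 and 7.62 with KL-FL, and 7.51, 7.48 and 7.48 with KL1. The 3 KL1 arrays lay below all others, and control and KL-FL covered the same range. The difference of -0.10 (SE 0.029, 95% interval -0.17 to -0.04) for KL1 minus control had the smallest standard error of the 43 genes and ran from -0.11 to -0.090 when any 1 array was left out, with adjusted p = 0.927 in limma. KL-FL minus KL1 was 0.10 (SE 0.029, 0.04 to 0.17), with adjusted p = 0.855.

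NDC80, the partner that pairs with NUF2 at the microtubule end, read 7.52, 7.45 and 7.44 in control, 7.45, 7.50 and 7.51 with KL-FL, and 7.45, 7.39 and 7.32 with KL1. Its groups overlapped by 1 KL1 array, and the differences were -0.085 (SE 0.040) for KL1 minus control and 0.10 (SE 0.040) for KL-FL minus KL1. Both values kept their sign when any 1 array was left out.

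SPC24 read 5.62, 5.40 and 5.5 in control, 5.47, 5.62 and 5.46 with KL-FL, and 5.48, 5.17 and 5.35 with KL1. SPC25 read 7.37, 7.15 and 7.26 in control, 7.37, 7.45 and 7.29 with KL-FL, and 7.30, 6.56 and 7.29 with KL1. KL1 replicate 2 held the lowest value of both genes, and the other 2 KL1 values of SPC25 lay inside the control range. KL1 minus control was -0.18 (SE 0.085) for SPC24 and -0.21 (SE 0.17) for SPC25, and without that array -0.094 and 0.035. KL-FL minus KL1 was 0.18 for SPC24 and 0.32 for SPC25, and without it 0.10 and 0.074. Set against the same-numbered control, SPC24 lay lower on each KL1 array, at -0.14, -0.23 and -0.15, as did NUF2 at -0.11, -0.09 and -0.11 and NDC80 at -0.067, -0.062 and -0.12, while SPC25 was at -0.073, -0.58 and 0.029. Of the 43 genes 10 lay lower in all 3 such pairs (23.3%), against 12.1% of all genes. The share was not counted for genes above the median level, of which 59.6% lay below 0 in KL1 minus control, against 47.8% of all genes. The labels do not say that the numbers mark pairs. Averaged over the 4 subunits the KL1 arrays lay at -0.03, -0.31 and -0.10 from the control mean, the control arrays from -0.06 to 0.07 and the KL-FL arrays from 0.01 to 0.08.

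CENPF and CENPE, large proteins of the outer kinetochore, had higher group means with KL-FL than in control, as did SPC25 by 0.11. CENPF read 8.85, 8.88 and 8.80 in control, 8.89, 8.97 and 9.06 with KL-FL, and 8.88, 8.88 and 8.81 with KL1. Every KL-FL array lay above every other array, the closest by 0.01 to the highest control. The difference was 0.13 (SE 0.048, 95% interval 0.02 to 0.24) from control and 0.11 (SE 0.048) from KL1, with adjusted p = 0.688 and 0.855 in limma, and without KL-FL replicate 3 it was 0.082 and 0.069.

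CENPE, a kinesin that carries chromosomes to the spindle equator, read 7.61, 7.67 and 7.67 in control, 7.71, 7.67 and 7.87 with KL-FL, and 7.63, 7.67 and 7.62 with KL1. KL-FL replicate 3 was the high array, and KL-FL minus control went from 0.10 (SE 0.051) to 0.042 without it. CENPA, the histone variant that marks centromeres, lay at 0.065 with KL-FL and -0.0061 with KL1. The first became 0.11 when KL-FL replicate 3 was dropped and the second 0.058 when KL1 replicate 2 was.

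Of the 6 mitotic kinesins 5 lay above 0 with KL-FL, also with arrays centred and after quantile normalization, and 3 with KL1. The shares above 0 for genes above the median level were 50.9% with KL-FL and 40.4% with KL1. KIF11, the motor that pushes spindle poles apart, read 7.90, 7.87 and 7.85 in control, 8.0, 7.91 and 8.01 with KL-FL, and 7.90, 7.79 and 7.84 with KL1. Its KL-FL arrays lay above every control and every KL1 array. The difference was 0.10 (SE 0.040, 95% interval 0.01 to 0.19) from control and 0.13 (SE 0.040, 0.04 to 0.22) from KL1, or 1.07-fold and 1.09-fold, with adjusted p = 0.688 and 0.855 in limma. Leaving out any 1 array gave 0.081 to 0.13 for the first and 0.10 to 0.16 for the second.

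KIF4A, a chromosome-bound kinesin, was the gene with the highest difference for KL1 minus control. It read 7.54, 7.45 and 7.51 in control, 7.58, 7.57 and 7.54 with KL-FL, and 7.54, 7.66 and 7.51 with KL1. Its KL1 arrays overlapped the controls, with a difference of 0.067 (SE 0.044) that was 0.022 without KL1 replicate 2. KIF14, a kinesin of cytokinesis, differed by 0.082 with KL-FL, and KL-FL replicate 3 stood 0.24 above the other 2 KL-FL arrays. Without that array it was 0.0023. KIF18A and KIF23 lay at 0.083 and 0.035 with KL-FL, and KIF2C, which depolymerizes microtubules, at -0.043, which was 0.0074 without KL-FL replicate 3.

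Of 6 spindle genes 5 lay above 0 with KL-FL (4 with arrays centred on their medians) and 3 with KL1, against 50.9% and 40.4% of genes above the median level. PRC1, which bundles the microtubules of the central spindle, read 8.83, 8.97 and 8.89 in control, 8.88, 8.94 and 8.81 with KL-FL, and 8.89, 9.06 and 8.88 with KL1. Its groups overlapped, and its KL1 difference of 0.044 (SE 0.059) was -0.014 without KL1 replicate 2. ASPM, which focuses spindle poles, lay at 0.082 with KL-FL and -0.018 with KL1, and the KL-FL value was 0.027 without KL-FL replicate 3. TPX2, DLGAP5, HMMR and NUSAP1, spindle assembly factors, lay between 0.033 and 0.077 with KL-FL and between -0.036 and 0.032 with KL1. Without KL-FL replicate 3 they lay between 0.047 and 0.10. For cytokinesis, ANLN, ECT2 and CEP55 lay at 0.040, 0.061 and -0.017 with KL-FL and 0.010, 0.017 and -0.012 with KL1.

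AURKB and BIRC5 belong to the chromosomal passenger complex, which corrects wrong attachments. AURKB, its kinase, read 8.74, 8.86 and 8.67 in control, 8.63, 8.67 and 8.48 with KL-FL, and 8.67, 8.74 and 8.68 with KL1. The highest KL-FL array met the lowest control at the second decimal, and every KL-FL array lay below every KL1 array, the closest by less than 0.01. The difference of -0.16 (SE 0.061, 95% interval -0.30 to -0.02) for KL-FL minus control was the lowest of the 43, with adjusted p = 0.688 in limma, and it was -0.11 without KL-FL replicate 3.

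BIRC5, survivin, read 6.92, 6.95 and 6.93 in control, 6.87, 6.95 and 6.70 with KL-FL, and 6.80, 6.92 and 6.91 with KL1. Its KL1 arrays lay below all controls, the closest by less than 0.01, at a mean difference of -0.060 (SE 0.061). With KL-FL the difference was -0.093 (SE 0.061), and -0.025 without KL-FL replicate 3. A second, dimmer probe set of BIRC5, at a mean of 3.85, gave -0.12 and -0.060.

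TOP2A and MKI67, general markers of dividing cells, lay within 0.1 log2 units of control with either vector. TOP2A, the topoisomerase that untangles sister chromatids, read 8.86, 8.85 and 8.84 in control, 8.85, 8.89 and 8.85 with KL-FL, and 8.79, 8.85 and 8.77 with KL1. MKI67, the Ki-67 protein that coats mitotic chromosomes, read 9.27, 9.41 and 9.41 in control, 9.47, 9.41 and 9.47 with KL-FL, and 9.31, 9.41 and 9.41 with KL1. The groups overlapped for both. TOP2A differed from control by 0.014 (95% interval -0.06 to 0.08; -0.020 with arrays centred) and -0.047 (-0.12 to 0.02), and MKI67 by 0.091 (-0.02 to 0.20) and 0.017 (-0.09 to 0.12).

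Of the genes of anaphase onset 3 of 3 lay below control with KL-FL, and 2 of 3 without KL-FL replicate 3, against 42.6% and 35.8% of all genes. Of the 8979 genes above the median level, the closer background, 49.1% lay below control, and 3424 did without KL-FL replicate 3. CDC20, the activator of the anaphase-promoting complex, read 9.59, 9.70 and 9.68 in control, 9.69, 9.72 and 9.37 with KL-FL, and 9.72, 9.65 and 9.71 with KL1. KL-FL replicate 3 was the lowest of the 9, and the other 2 KL-FL arrays lay near the highest control. The difference was -0.063 (SE 0.086) with all arrays and 0.052 without that one. UBE2C, the ubiquitin-conjugating enzyme of the complex, and FBXO5, its inhibitor EMI1, lay at -0.044 and -0.069 with KL-FL and -0.039 and -0.051 with KL1, and without KL-FL replicate 3 the KL-FL values were -0.018 and -0.0083.

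The lean of KL-FL replicate 3 ran with the length of the gene. Gene span is the distance from start to end in RefSeq GRCh38.p14, introns included, and ran from 4.22 kb for CDC20 to 131 kb for KIF4A with a median of 29.4 kb. Across the 43 genes, which share that array and are not independent, the difference of KL-FL replicate 3 from the other 2 KL-FL arrays had a Spearman correlation with span of 0.72. It was 0.50 over 41 DNA replication and G1/S genes and 0.21 over 17933 genes. On the same measure KL-FL replicates 1 and 2 gave -0.41 and -0.66 over the 43 genes, and KL1 replicate 3 gave -0.39. Each array is set against its own group mates, so the 3 KL-FL values mirror each other. Against the control mean KL-FL replicate 3 gave 0.77. In the 22 shorter genes the median difference of KL-FL replicate 3 from the other 2 was -0.14 and 1 lay above 0. In the 21 longer genes it was 0.0074 and 11 did. CDC20 at -0.34, PLK1 at -0.23 and BIRC5 at -0.21 were the lowest, and KIF14 at 0.24, CENPE at 0.18 and ASPM at 0.16 the highest.

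The same order appeared in KL-FL minus control, where the correlation with span was 0.69 over the 43 genes and 0.15 over all genes. Of the longer genes 19 of 21 lay above 0 and of the shorter 7 of 22. Without KL-FL replicate 3 the correlation was 0.37 over the 43 genes and 0.03 over all, with 18 of 21 longer and 14 of 22 shorter genes above 0. For KL1 minus control it was 0.31 and -0.03. KL-FL replicate 1 alone, set against the control mean, gave 0.58, and KL-FL replicate 2 gave 0.12. The split by span was chosen after the values had been seen, and what span stands for in these arrays was not tested.

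**Figure D4:**
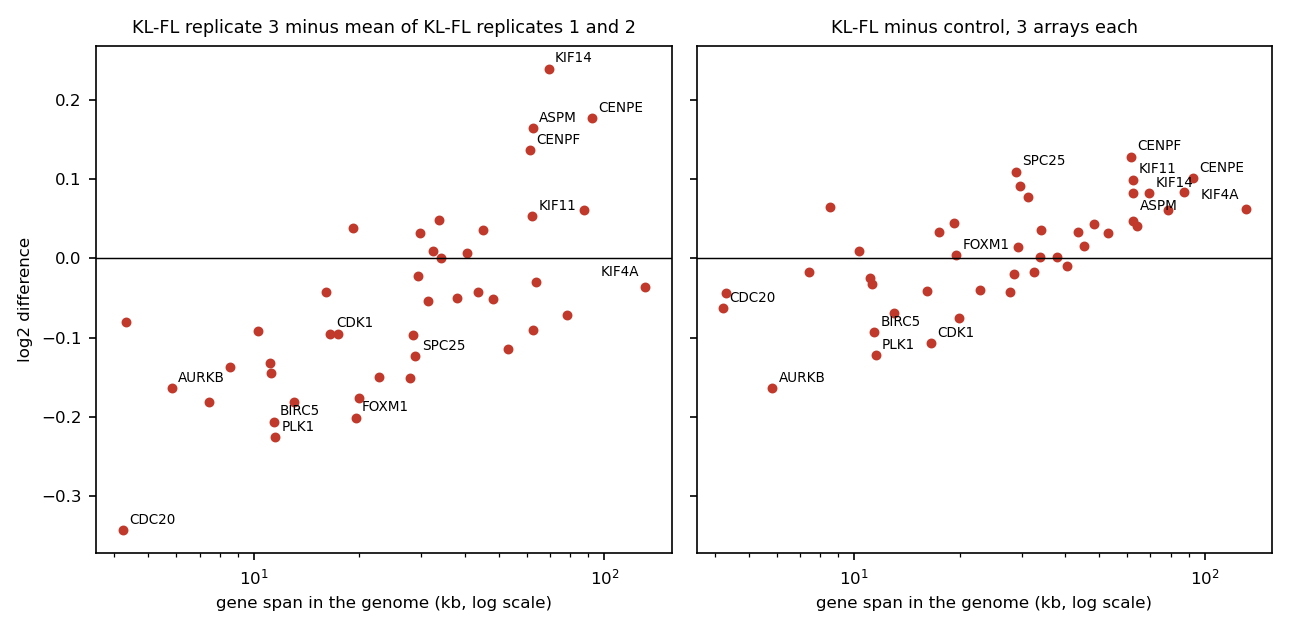
Each point is 1 of the 43 measured genes, with its span in the genome (horizontal axis, kb, log scale) against its log2 difference (vertical axis) for KL-FL replicate 3 minus the other 2 KL-FL arrays (left) and for KL-FL minus control (right). Short genes such as CDC20, PLK1 and AURKB lie below 0 in both panels, and long genes such as CENPE, CENPF and KIF14 above. Not all do: of the 21 longer genes 11 lie above 0 on the left and 19 on the right. Of the 22 shorter genes 1 and 7 do.

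Of 107 other mitosis genes 98 were measured and 0 were called in any comparison. With KL-FL 54 lay above and 44 below control, with a median of 0.0090, and with KL1 34 above and 64 below, with a median of -0.015. The shares above were 55.1% and 34.7%, against 57.3% and 52.1% of all genes. For genes above the median level they were 50.9% and 40.4%. KL-FL was above KL1 for 74 of 98 (75.5%, against 54.4% of all genes and 58.4% of those above the median level). With arrays centred on their medians it was for 44 (44.9%, against 33.2% and 38.9%). The smallest p were those of SMC3, the cohesin subunit, at 0.14 (SE 0.034, adjusted p = 0.577 in limma) and WAPL, which releases cohesin, at 0.14 with KL-FL, and WAPL at 0.12 and ANAPC1 at -0.10 with KL1. Of their subgroups, condensin and cohesin lay above 0 in 10 of 17 with KL-FL, other kinetochore genes in 14 of 25 and subunits of the anaphase-promoting complex in 3 of 13.

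Upstream of these genes stand the DREAM and MuvB complexes, which repress or activate them, and the G2 checkpoint, which restrains CDK1. None of 13 DREAM genes or 15 checkpoint genes and CDK inhibitors was called, where 0.00557% of all genes were in each comparison with control. Their medians were 0.019 and 0.024 with KL-FL, against 0.0099 over all genes and 0.0015 over those above the median level. With KL1 they were 0.00029 and 0.017, against 0.0026 and -0.014. Centring arrays on their medians made the KL-FL values -0.014 and -0.0097, against -0.024 and -0.032. GADD45A, a stress-induced inhibitor of CDK1, had the smallest p of the checkpoint genes at 0.13 (SE 0.060, adjusted p = 0.7 in limma) with KL-FL and 0.14 (SE 0.060, adjusted p = 0.927) with KL1. E2F7, a repressor of the E2F family, lay at 0.10 with KL-FL.

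Genes of DNA replication and the G1/S transition precede mitosis in the cycle. Of 41 measured, 25 lay below control with KL-FL and 27 with KL1, with medians of -0.015 and -0.031 and 0 called. Above control lay 39.0% and 34.1%, against 57.3% and 52.1% of all genes. For genes above the median level the shares were 50.9% and 40.4%. Without KL-FL replicate 3 the count below control with KL-FL was 22, and 46.3% lay above, against 64.2% of all genes. CDC6, which loads the replicative helicase, lay at 0.14 (SE 0.036, adjusted p = 0.583 in limma) with KL-FL. RFC2, a subunit of the clamp loader, lay at -0.17 with KL-FL and -0.18 with KL1.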

How the data were processed

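Log2 values of 33297 probe sets on 9 arrays stand in the 1 table that the authors deposited. Per the labels, each sample was labelled from 100 ng of total RNA by a whole-transcript protocol. Partek 6.6 is listed in the submitters' processing notes. How background and scale were corrected is not given in the sources used here. Values from 1.79 to 12.4 were taken to be on a log2 scale. A table pairing probe sets with genes named 1 gene for 19181, several for 2055 and none for 12061. The brightest probe set naming a gene alone stood for it, which gave 17958 genes, 895 of them with several. Values were used as deposited. Groups came from the titles. limma 3.58.1 in R 4.3.3 was fitted to all 3 groups without covariates, with two-sided p-values adjusted by Benjamini-Hochberg across all of the genes. The spread had 8.88 degrees of freedom. The fit was also tried on simulated arrays with independent noise for each gene. Those lack leans shared by many genes of an array, such as that of KL-FL replicate 3, so they cannot tell how the fit handles them. The number of arrays limits the precision.

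The genes and lists were chosen with earlier results of these data known, so no list was tested and no p was adjusted within one. Values on every array are given for the 6 genes with the smallest p and the 2 highest and 2 lowest differences in each comparison, and for 11 anchor genes set by role, of which BUB1B was not measured. Of other lists the 2 genes with the smallest p per comparison with control could be named.

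Replicates are numbered 1, 2 and 3 in each title, and the meaning of a number is not stated. Deviations of same-numbered control and KL1 arrays correlated at 0.113, 0.322 and 0.186, each above the cut-off of 0.1 set here for a pair. No pair with KL-FL exceeded it, the highest being 0.0974 for replicate 1 of control and KL-FL. Arrays with different numbers were not correlated, so these values cannot decide whether the numbers pair the groups. With the replicate as a block 0 genes were called in place of 1 in each comparison with control, and 0 of the 43 either way.

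Alternatives changed the scaling, the filter on dim genes, the probe set per gene, the estimate of spread, the arrays in the fit and the replicate block.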

Additional observations from a re-analysis of the deposited data

How the results depend on the processing

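Over 21 alternatives 0 of the 43 genes were called. In KL-FL minus control the number of all genes called was 1 and became 0 with every probe set tested, with each gene's own variance, with only the 6 arrays compared and with the replicate block, and 523 with array weights, which gave KL-FL replicate 1 a weight of 6.76 and KL-FL replicate 3 one of 0.265. Leaving out 1 array gave 0 to 1. In KL1 minus control it was 1 and became 0 with every probe set, own variance or the replicate block, and 2 with array weights or without the 2 arrays that stood apart, a choice made after seeing the data; leaving out 1 array gave 0 to 1. In KL-FL minus KL1 it was 0, and 1 with array weights or own variance.

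The median of the 43 genes in KL-FL minus control, 0.014, was -0.020 with arrays centred on their medians, -0.0012 after quantile normalization, 0.031 without the 2 arrays and 0.00045 to 0.031 when 1 array was left out. In KL-FL minus KL1, 0.030 became 0.00087 when centred, 0.0048 after quantile normalization, 0.053 without the 2 arrays and 0.010 to 0.052 when 1 was left out. The count below 0 in KL-FL minus control, 17, was 26 when centred, 11 without the 2 arrays and 11 to 21 when 1 was left out. In KL-FL minus KL1, 14 became 7 with array weights, 5 without the 2 arrays and 3 to 19 when 1 was left out. For KL1 minus control the count ranged from 25 to 33 and the median from -0.028 to -0.017 when 1 array was left out, and the median, -0.022 with all arrays, was -0.0065 after quantile normalization.

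Of 40 differences of named genes 27 kept their sign throughout. Leaving out 1 array turned the following, whose ranges are over all such fits. In KL-FL minus control AURKA ran from -0.072 to 0.010, CCNB1 from -0.076 to 0.019 and CDC20 from -0.13 to 0.052, each highest without KL-FL replicate 3, and FOXM1 from -0.065 without KL-FL replicate 2 to 0.071. In KL1 minus control CCNB1 ran from -0.0040 to 0.034, FOXM1 from -0.049 to 0.0050, PRC1 from -0.014 to 0.081 and SPC25 from -0.33 to 0.035, each turned by leaving out KL1 replicate 2, and MKI67 from -0.030 to 0.049, turned by control replicate 1. CDC20 in KL-FL minus KL1 ran from -0.16 to 0.015. Leaving out both arrays that stood apart gave 0.010, 0.019 and 0.052 for AURKA, CCNB1 and CDC20 with KL-FL, and -0.0040, 0.0050, -0.014 and 0.035 for CCNB1, FOXM1, PRC1 and SPC25 with KL1. With KL-FL, array weights gave 0.019 for CDC20 and -0.0096 for NDC80. Centring gave -0.030 for FOXM1, -0.018 for NDC80 and -0.020 for TOP2A, and quantile normalization -0.0052 for FOXM1 and -0.0012 for TOP2A. Quantile normalization also gave 0.0038 for AURKA with KL1. The causes were not tested. The replicate block changed no other call.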

Other observations

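A second probe set of CDC20, at a mean of 5.15, read -0.0051 with KL-FL and -0.029 with KL1, where the brighter one read -0.063 and 0.036.

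Exactly equal values, to the 5 decimals deposited, recur between arrays. Of the 43 genes 25 (58.1%) held the same value on 2 or more arrays, as did 68.5% of all genes. ANLN held 1 value, 9.38, on 6 of 9 arrays, and KIF23 read the same on all 3 KL-FL arrays, so its SD there is 0. How the equal values arose was not tested.

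Deviations of the 43 genes from their group means correlated between same-numbered control and KL1 arrays at 0.48, 0.641 and 0.148, above the values over all genes for replicates 1 and 2 and below for replicate 3. Between control and KL-FL they were -0.128, -0.18 and -0.00997.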
